A study of Rattus norvegicus with 18 samples.

Results

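Livers of obese rats given the high dose of plantain were set against livers of obese rats given the low dose. The comparison rests on 6 of the 18 liver RNA-seq libraries of the series: 3 labelled high dose and 3 labelled low dose. All 18 come from male rats aged 18 weeks, and every rat outside the normal control is labelled obese. The normal control and the obese control received water, 3 further groups received a low, a medium or a high dose of plantain, and the positive control received orlistat, an inhibitor of the lipases that digest dietary fat. Each of the 6 groups has 3 libraries. The labels give no amount for any dose, no duration, no strain and no diet, and whether each library is an animal of its own is not stated. The p-values below therefore measure the spread between libraries, which may be technical. Of 33657 genes in the deposited table, 11945 had at least 1 FPKM (fragments per kilobase of gene, scaled to sequencing depth) in at least 3 of the 18 libraries, and these were tested. The rule uses no measured difference between the doses. They include 10655 protein-coding genes, and 10183 of the 11945 had at least 1 FPKM in all 6 libraries compared.

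Liver is made mostly of hepatocytes, with sinusoidal endothelial cells, resident macrophages called Kupffer cells, and fat-storing stellate cells between them. Hepatocytes read growth hormone, insulin, glucagon, amino acid supply and the time of day through a small set of signalling pathways, each with well known target genes. Growth hormone acts through the kinase JAK2 and the factor STAT5, and its release pattern differs between the sexes, which gives male and female rat livers different sets of enzymes. Food deprivation raises hormones such as FGF21 and binding proteins such as IGFBP1, and shortage of amino acids activates the factor ATF4. Nothing in the labels says when the livers were taken or when the rats last ate.

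The high-dose libraries held between 16.6 and 20.6 M reads recovered from the deposited values, and the low-dose libraries between 19.6 and 23.9 M. Transcripts of the mitochondrial genome took 4.59 to 4.70% of reads at the high dose and 6.73 to 7.30% at the low dose, with no overlap, and 6.26 to 6.95% at the medium dose. Albumin took a mean of 11.9 ± 0.0371% (SD, n = 3) of reads at the high dose and 11.7 ± 0.275% (SD, n = 3) at the low dose. Of 14 hepatocyte markers tested, 4 rose and 4 fell, with a median difference of -0.03 in log2(FPKM + 1), and 10 rose and 1 fell when each library was rescaled to the same total (TPM). All 14 were above 0 in all 6 libraries.

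Many tested genes separated the doses, mostly by small amounts. Named falls included the prolactin receptor Prlr, the fasting hormone gene Fgf21 and the female-liver transcription factor Cux2, and the named rises included the serine-degrading enzyme Sds and the liver transcription factor Onecut1. In limma with Benjamini-Hochberg adjustment over all 11945 genes, 3903 genes (32.7%) passed an adjusted p of 0.05. Of these, 1939 (16.2%) were higher at the high dose and 1964 (16.4%) were lower. The median difference, high minus low dose in log2(FPKM + 1), was 0.25 among the genes that rose and -0.25 among those that fell, and only 18 rises and 41 falls exceeded 1 on this scale. A second test asked for a change larger than 1.2-fold, and 160 genes (1.34%) rose and 221 (1.85%) fell by that rule. The libraries of the 2 doses did not overlap for 5310 genes (44.5%), among them 1880 of the 1939 that rose and 1899 of the 1964 that fell. With 3 libraries against 3 an exact permutation test cannot go below 0.1, so the p-values given come from the model that shares its spread across all 18 libraries.

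The balance of rises and falls depends on the scale. The deposited FPKM sit on a scale where the middle gene is equal between libraries, and the median difference over all tested genes was -0.01. Rescaled so that each library sums to the same total (TPM), the median difference of all genes became 0.11, and 4003 genes were higher and 826 lower. All 1939 genes called higher kept that call under TPM, while 825 of the 1964 called lower kept theirs and 21 were then called higher. Count-based testing of the recovered reads (voom) gave 2986 higher and 1132 lower, and TPM computed without mitochondrial genes gave 2969 higher and 1157 lower. For the middle gene, a fall smaller than about 0.12 on the log2 scale is therefore a fall relative to the other genes only. Genes well above 1 FPKM moved slightly more, and the coagulation gene Serpinc1 went from -0.127 to 0.009 under TPM. Differences below are on the deposited scale, and the counts under TPM are given for lists whose balance of rises and falls turns there. The log2(FPKM + 1) scale understates the change of genes near or under 1 FPKM.

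Genes under growth hormone control changed in both directions. Of 19 tested genes of growth hormone signalling, 7 rose and 7 fell, with a median of -0.01 against -0.01 over all genes (9 higher and 6 lower under TPM). The 7 that rose included the feedback inhibitors Cish and Socs2, which STAT5 switches on, the hepatocyte factor Onecut1, the growth hormone receptor Ghr and the hormone Igf1. The 7 that fell included Prlr, Cux2, the repressor Bcl6, which STAT5 switches off, and the steroid reductase Srd5a1. Stat5b itself differed by 0.11 ± 0.05 (SE) and did not pass the test (limma, adjusted p = 0.133). It was called higher under TPM (0.25, adjusted p = 0.00419), with voom (0.20, adjusted p = 0.0213) and with TPM over nuclear genes (0.19, adjusted p = 0.02).

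Prlr, the receptor for prolactin and placental lactogens, lies on chromosome 2 at 60131776 to 60325692, plus strand, in the coordinates of the deposited table, which names no build. It stood at 18.8, 21.3 and 19.6 FPKM in the 3 low-dose libraries and at 3.10, 3.15 and 3.44 FPKM in the 3 high-dose libraries. Every low-dose library was far above every high-dose library, and the difference was -2.30 ± 0.06 (SE; limma, adjusted p = 1.21e-12). The medium-dose libraries were close to the high dose, at 4.78, 4.13 and 3.77 FPKM, and the obese control was close to the low dose, with a mean of 17.1 FPKM. Cux2, a transcription factor that is much more active in female than in male liver, was at 2.87, 2.78 and 2.67 FPKM at the low dose and 0.429, 0.434 and 0.669 FPKM at the high dose. It fell by 1.32 ± 0.08 on the log2 scale (limma, adjusted p = 4.4e-09), and the normal control stood with the high dose at a mean of 0.477 FPKM.

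Cish was at 6.12, 6.62 and 6.63 FPKM at the low dose and 12.1, 11.8 and 13.2 FPKM at the high dose, a difference of 0.84 ± 0.05 (SE; limma, adjusted p = 1.14e-08). Socs2 was at 14.4, 14.6 and 12.8 FPKM at the low dose and 23.0, 19.3 and 20.6 FPKM at the high dose, a difference of 0.56 ± 0.07 (SE). Onecut1 was at 8.11, 9.65 and 8.56 FPKM at the low dose and 17.8, 17.9 and 16.8 FPKM at the high dose, a difference of 0.92 ± 0.08 (SE; limma, adjusted p = 3.47e-07). In all 3 genes the libraries of the doses were apart, and the medium dose lay below both: Cish had a medium-dose mean of 3.69 FPKM, Socs2 of 7 and Onecut1 of 6.31. Bcl6 showed the reverse order, with 4.96, 4.83 and 5.34 FPKM at the low dose, 6.77, 6.92 and 6.90 FPKM at the medium dose and 2.87, 2.73 and 2.48 FPKM at the high dose. Among these 4 genes no dose order from low through medium to high was seen. Igf1 and Ghr rose modestly, both by 0.28 ± 0.02 (SE).

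The promoter of Cish is shown because it holds several matches to the STAT5 site, a pattern added to the search after the data were seen. The sequence is the 250 bases before the transcription start from RefSeq on the GRCr8 rat build (chr8:116850719-116850968, plus strand), written 5′ to 3′ along the gene, with each match to the STAT5 site TTCNNNGAA in capitals.

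Cish: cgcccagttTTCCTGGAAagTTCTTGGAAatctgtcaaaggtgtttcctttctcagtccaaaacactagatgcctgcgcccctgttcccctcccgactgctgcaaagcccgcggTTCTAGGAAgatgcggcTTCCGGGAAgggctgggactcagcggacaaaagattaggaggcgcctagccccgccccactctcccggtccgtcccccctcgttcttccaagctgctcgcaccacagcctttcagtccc

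The window holds 4 matches, beginning 241, 230, 136 and 119 bases before the start. Over 8033 tested genes with a RefSeq window of 250 bases before to 50 after the start, 7.02% held this letter pattern on either strand, 7.30% of the genes that rose and 8.19% of those that fell. The pattern is its own reverse complement. A match describes letters and says nothing about binding.

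Genes with male-biased and female-biased expression in rat liver moved in opposite directions. All 9 tested male-type genes (of 14 listed) passed the test, 7 of them higher at the high dose, with a median of 0.17. Of 13 tested female-type genes, 10 fell and 1 rose, with a median of -0.37. These counts read against 16.2% of all genes higher and 16.4% lower. They were the same under TPM except that a second female-type gene was then called higher. By the 1.2-fold test 1 male-type gene rose and 1 fell, and 1 female-type gene rose and 5 fell. Cyp2c11 and Cyp2c12 did not pass the 1.2-fold test. Prlr, Cux2 and Srd5a1 belong to the female-type list and to the growth hormone list, and Cyp2c12, on the same 2 lists, and Cyp2c11 and Hsd3b5, on the growth hormone and male-type lists, are also shared. Hsd3b5, a steroid enzyme, passed at 0.14 ± 0.04 (SE; limma, adjusted p = 0.0158). Its call was lost without low dose 1, high dose 1 or high dose 2, with adjusted p of 0.07, 0.0566 and 0.0778. A fit of the 6 libraries alone lost it too (adjusted p = 0.0613). The lists were chosen with results of these data known, so their counts are a description.

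Among the male-type enzymes, the steroid hydroxylase Cyp2c11 rose from 511, 491 and 524 FPKM at the low dose to 643, 655 and 681 FPKM at the high dose, a difference of 0.37 ± 0.05 (SE). Cyp3a18 rose from a mean of 220 to a mean of 332 FPKM, a difference of 0.59 ± 0.04 (SE). The fatty acid hydroxylases Cyp4a3 and Cyp4a2, male-biased and also controlled by the fatty acid receptor PPARalpha, went the other way, by -0.53 ± 0.04 and -0.24 ± 0.03 (SE). Among the female-type genes, Srd5a1 fell from 119, 119 and 121 FPKM to 64.8, 65.5 and 67.0 FPKM, a difference of -0.86 ± 0.02 (SE; limma, adjusted p = 1.21e-12). Cyp2c7 fell by 0.53 ± 0.02 and the steroid sulfate hydroxylase Cyp2c12 by 0.50 ± 0.09 on the log2 scale. Akr1b7, an aldose reductase family member, was at 2.25, 2.72 and 2.51 FPKM at the low dose, while the high-dose libraries were listed at 0.0376, 0.166 and 0. A1bg passed the test at -0.30 ± 0.10 (SE; adjusted p = 0.0366) with all 6 libraries under 0.5 FPKM. Without low dose 2, low dose 3, high dose 1 or high dose 2 it missed the threshold (adjusted p of 0.0601 to 0.169). Its call was also lost after quantile normalization (adjusted p = 0.245) and in a fit of the 6 libraries alone (adjusted p = 0.167). The exception on the female-type list was Hao2, a peroxisomal oxidase of hydroxy acids, which rose by 0.46 ± 0.03 (SE).

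**Figure D1:**
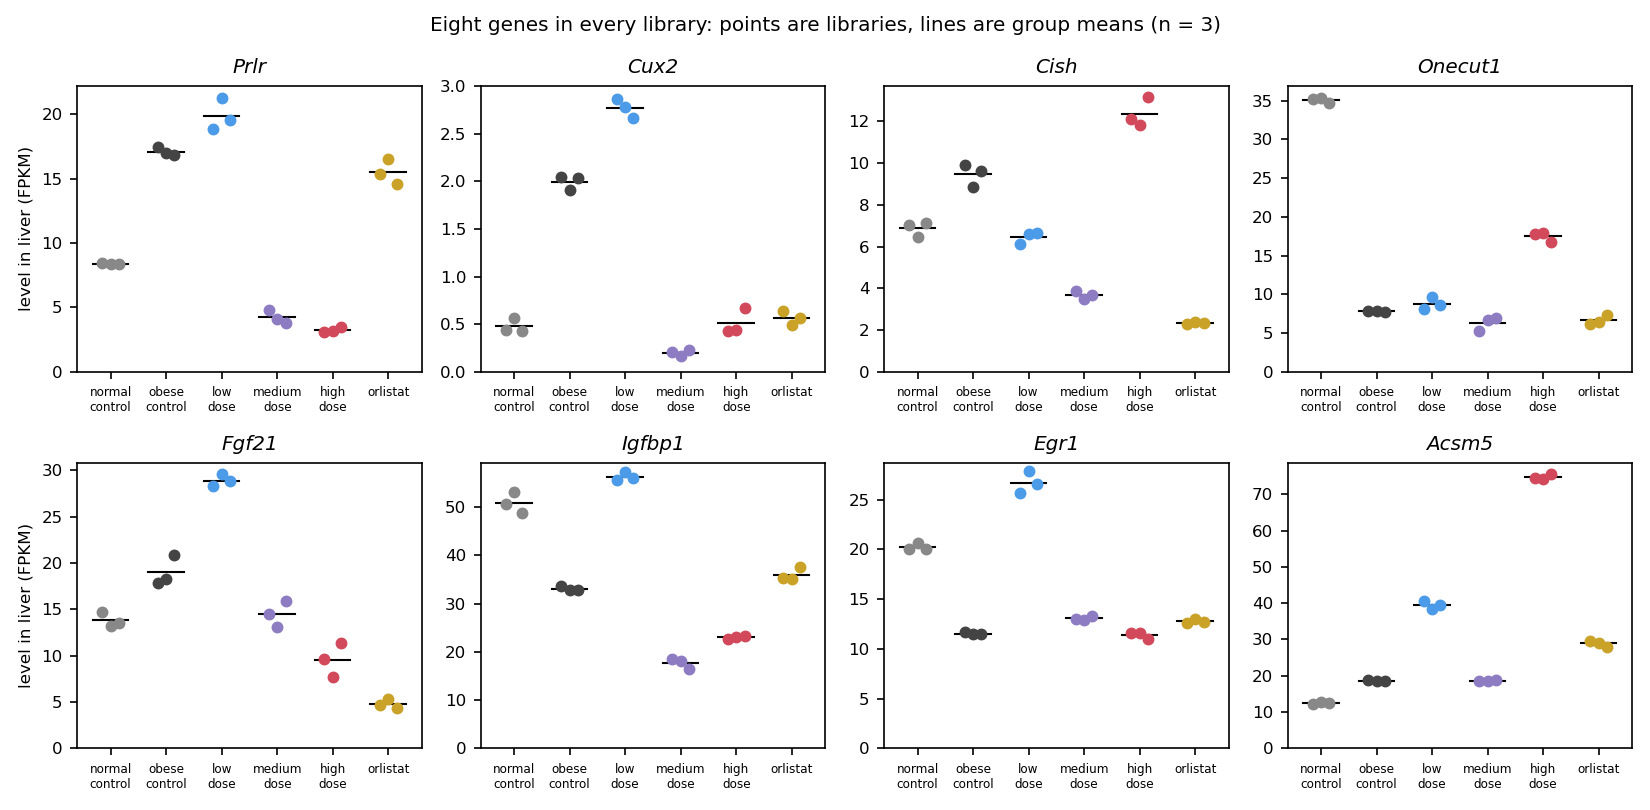
Level of 8 genes in FPKM (vertical axis, from 0, linear) in each of the 18 liver libraries by group; points are libraries and lines are means of 3. In each gene the 3 high-dose points are apart from the 3 low-dose points: Prlr is at 18.8 to 21.3 FPKM at the low dose and 3.10 to 3.44 FPKM at the high dose, and Cish, Onecut1 and Acsm5 are higher at the high dose with the medium dose below both.

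The hormone gene Fgf21 and many genes of the amino acid stress response were lower at the high dose. Of 27 tested genes of the amino acid stress response, 16 fell and 0 rose, with a median of -0.24 (10 lower and 3 higher under TPM). By the 1.2-fold test 3 of the 27 fell and 0 rose. Fgf21, the liver hormone released in fasting and protein restriction, was at 28.3, 29.6 and 28.8 FPKM at the low dose, 14.5, 13.1 and 15.9 FPKM at the medium dose and 9.68, 7.65 and 11.3 FPKM at the high dose. The 3 groups were in dose order without overlap, and high minus low was -1.52 ± 0.11 (SE; limma, adjusted p = 3.89e-08). The medium dose did not depart from the mean of the other doses by the test (adjusted p = 0.175). Gdf15, a stress hormone that suppresses appetite, is on none of the lists and was chosen after its values were seen. It fell from 7.21, 8.20 and 6.75 FPKM to 2.28, 3.71 and 3.54 FPKM, a difference of -1.02 ± 0.13 (SE).

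The factor Atf4 itself fell by 0.31 ± 0.04 on the log2 scale, Atf5 by 0.46 ± 0.02 and Atf3 by 0.44 ± 0.09. Of the ATF4 targets, the serine synthesis enzymes Phgdh, Psat1 and Psph fell by 0.50 ± 0.10, 0.47 ± 0.10 and 0.45 ± 0.11, and the asparagine synthetase Asns by 0.51 ± 0.10. These 4 enzymes were low in this tissue, with low-dose means between 1.32 and 5.70 FPKM. None of the 4 passed the 1.2-fold test, nor did Atf4 or Atf3. Ppp1r15a, which reverses the translational arrest of this response, fell by 0.53 ± 0.07. The cystathionine lyase Cth, which makes cysteine and is on the list of amino acid breakdown, fell from 255, 268 and 299 FPKM to 129, 124 and 126 FPKM, a difference of -1.11 ± 0.13 (SE; limma, adjusted p = 1.05e-05). The endoplasmic reticulum chaperones gave a weaker picture, with 12 lower and 6 higher of 28 and a median of -0.10, and with 10 higher and 7 lower under TPM. Their lower members were led by Manf (-0.49 ± 0.03), Sdf2l1 (-0.44 ± 0.05), Hyou1 (-0.37 ± 0.04) and Creld2 (-0.35 ± 0.08), while the response factors Xbp1 and Atf6 both rose by 0.29.

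The Fgf21 promoter carries the amino acid response element, the letter pattern TGATGNAA to which ATF4 with a partner is known to bind, shown in capitals as it reads on this strand (chr1:105221377-105221626, minus strand, GRCr8, RefSeq, the 250 bases before the start).

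Fgf21: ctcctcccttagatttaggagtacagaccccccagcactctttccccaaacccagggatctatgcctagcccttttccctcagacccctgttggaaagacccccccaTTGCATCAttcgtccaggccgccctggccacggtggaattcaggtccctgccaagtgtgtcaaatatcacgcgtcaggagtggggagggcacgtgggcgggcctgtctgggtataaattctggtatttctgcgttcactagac

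The match begins 143 bases before the start. The pattern was found on either strand in 1.88% of the 8033 windows, in 1.47% of those of genes that rose and 2.37% of those of genes that fell. Of the other genes named here, Gimd1, Ugp2 and Vsig4 also held it, and Gimd1 and Ugp2 rose.

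Igfbp1 and G6pc, genes that insulin is known to restrain, were lower at the high dose, with others of the insulin pathway higher. Igfbp1, a binding protein for insulin-like growth factors, was at 55.5, 57.2 and 56.0 FPKM at the low dose and 22.6, 23.1 and 23.2 FPKM at the high dose, a difference of -1.25 ± 0.04 (SE; limma, adjusted p = 7.9e-12). The medium dose was lower still, at 18.6, 18.1 and 16.4 FPKM, and the obese control stood between the doses at a mean of 33.1 FPKM. G6pc, which releases free glucose, fell from 83.5, 80.3 and 84.2 FPKM to 47.4, 48.5 and 47.5 FPKM, a difference of -0.78 ± 0.03 (SE). Igfbp2 fell by 0.53 ± 0.13 on the log2 scale. In the list of 24 glucose and insulin response genes, 8 rose and 6 fell, with a median of -0.03 (15 higher and 3 lower under TPM). The rises included Ugp2 (0.56 ± 0.03), the liver glycogen synthase Gys2 (0.40 ± 0.04), the insulin-restrained factor Foxo1 (0.42 ± 0.05) and the insulin receptor Insr (0.28 ± 0.04).

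The Igfbp1 promoter is shown with the core of the insulin response element, CAAAACA, in capitals (chr14:86261027-86261276, plus strand, GRCr8, RefSeq, the 250 bases before the start).

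Igfbp1: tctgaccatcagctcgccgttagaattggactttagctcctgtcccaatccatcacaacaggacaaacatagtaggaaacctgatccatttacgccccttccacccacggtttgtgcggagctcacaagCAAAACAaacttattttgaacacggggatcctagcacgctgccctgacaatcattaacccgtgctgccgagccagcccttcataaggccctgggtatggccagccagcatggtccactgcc

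The match begins 121 bases before the start. These letters stood in 4.53% of the 8033 windows on either strand, in 4.99% of those of genes that rose and 4.02% of those of genes that fell.

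Immediate early genes, which growth factors and stress switch on within minutes, were mostly lower at the high dose. Of 20 tested, 12 fell and 1 rose, with a median of -0.31, and the counts were the same under TPM. Egr1, a zinc finger factor, was at 25.6, 27.9 and 26.5 FPKM at the low dose and 11.6, 11.6 and 11 FPKM at the high dose, a difference of -1.16 ± 0.03 (SE; limma, adjusted p = 1.21e-12). The medium dose, at 13, 12.9 and 13.3 FPKM, and the obese control, at a mean of 11.5 FPKM, were near the high dose, and the normal control lay between at a mean of 20.2 FPKM. Btg2, an antiproliferative gene, fell from 16.9, 17.1 and 17.9 FPKM to 7.96, 8.08 and 6.72 FPKM, a difference of -1.09 ± 0.06 (SE). Junb fell by 0.90 ± 0.03, Klf10 by 0.61 ± 0.08, Fos by 0.55 ± 0.08, Ier2 by 0.55 ± 0.06 and Jun by 0.48 ± 0.03 on the log2 scale. The exception was Myc, a driver of growth, which rose from 2.54, 2.98 and 2.95 FPKM to 4.27, 5.10 and 5.42 FPKM, a difference of 0.63 ± 0.07 (SE). The cyclins Ccnd1 and Ccnd2 also rose, by 0.74 ± 0.06 and 0.57 ± 0.09 (SE). In the list of 24 cell cycle and p53 genes 6 rose and 2 fell, Btg2 and Bax, with a median of 0.07. The proliferation genes Mki67, Top2a, Ccnb1 and Cdk1 were under the expression limit and were not tested.

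The Egr1 promoter is shown with its CArG boxes, the sites of serum response factor (CC, any 6 of A or T, GG), in capitals (chr18:26736828-26737077, plus strand, GRCr8, RefSeq, the 250 bases before the start).

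Egr1: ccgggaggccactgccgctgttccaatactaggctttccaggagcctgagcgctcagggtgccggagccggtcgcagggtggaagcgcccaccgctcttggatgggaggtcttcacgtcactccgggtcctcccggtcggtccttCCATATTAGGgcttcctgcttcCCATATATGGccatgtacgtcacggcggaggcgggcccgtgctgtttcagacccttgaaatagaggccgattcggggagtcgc

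The window holds 2 such boxes, beginning 105 and 83 bases before the start. A CArG box stood in 1.32% of the 8033 windows, in 1.19% of those of genes that rose and 1.15% of those of genes that fell, and Egr1 was the only gene named here whose window held one.

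Clock genes differed between the doses in both arms of the oscillator. Of 23 tested, 10 rose and 4 fell, with a median of 0.13 (14 higher and 4 lower under TPM). The core activator Arntl, which encodes BMAL1, was at 1.96, 2.04 and 2.04 FPKM at the low dose and 0.824, 0.902 and 0.810 FPKM at the high dose, a difference of -0.71 ± 0.08 (SE; limma, adjusted p = 5.58e-06). Its partner Npas2 fell by 0.65 ± 0.09 on the log2 scale, with all low-dose libraries under 1 FPKM. The repressor Nr1d1, also called REV-ERBalpha, fell from 28.0, 28.8 and 30.2 FPKM to 17.8, 16.4 and 15.5 FPKM, a difference of -0.78 ± 0.06 (SE). The period genes Per2 and Per3 both rose by 0.46, with SE of 0.04 and 0.05. Per2 was at 6.76, 6.74 and 6.20 FPKM at the low dose and 9.28, 9.23 and 9.74 FPKM at the high dose, and the medium dose was at 8.86, 9.30 and 9.38 FPKM.

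Clock outputs rose as well. Hlf and Dbp, factors that bind D-boxes, rose by 0.54 ± 0.10 and 0.22 ± 0.03 (SE), the deubiquitinase Usp2 by 0.47 ± 0.05 and Noct by 0.62 ± 0.06. Tsku, a secreted protein of the liver, rose from 55.0, 55.5 and 52.8 FPKM to 88.3, 88.1 and 88.7 FPKM, a difference of 0.69 ± 0.03 (SE), with the medium dose below both at 34.4, 34.9 and 36.7 FPKM. The time of tissue collection is not given, and its part in these differences was not tested. In the obese control Arntl was higher, at a mean of 6.05 FPKM, and Per3 lower, at a mean of 2.29 FPKM, than at either dose.

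The Per2 promoter is shown with its D-box in capitals, searched as TTATGTAA and TTACGTAA on both strands (chr9:99496994-99497243, minus strand, GRCr8, RefSeq, the 250 bases before the start).

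Per2: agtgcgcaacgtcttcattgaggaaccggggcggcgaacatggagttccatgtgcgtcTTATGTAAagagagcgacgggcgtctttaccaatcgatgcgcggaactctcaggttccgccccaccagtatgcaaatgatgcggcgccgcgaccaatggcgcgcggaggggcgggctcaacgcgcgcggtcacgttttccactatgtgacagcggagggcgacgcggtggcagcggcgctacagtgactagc

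The D-box begins 192 bases before the start. It stood in 0.734% of the 8033 windows. Among 1424 genes that rose and had a window, 20 held it (1.40%), against 1 of 1392 that fell (0.0718%) and 38 of 5217 that did not pass the test (0.728%). The genes named here that held it and rose were Per2, the P450 gene Cyp2b2 and the acetyltransferase Nat8f3. The RORE core AGGTCA stood in 12.9% of all windows, in 12.5% of those of genes that rose and 16.2% of those of genes that fell. The E-box CACGTG stood in 10.1% of all windows, in 9.41% where the gene rose and 10.2% where it fell. The CCAAT box stood in 39.5% of all windows, 38.3% where the gene rose and 40.5% where it fell. The heat shock pair GAANNTTC stood in 5.98%, 6.04% and 6.61% in the same order, and the antioxidant element TGACNNNGC in 15.7%, 15.7% and 16.5%. Genes called lower by the 1.2-fold test had 131 windows. There the shares were 24.4% for the RORE core, 12.2% for the STAT5 site and 10.7% for the heat shock pair. They were 46.6% for the CCAAT box, 3.05% for the amino acid response element and 15.3% for the antioxidant element. They were 9.92% for the E-box, 5.34% for the insulin response element and 2.29% for the CArG box, and 0 windows held a D-box. The 107 windows of genes called higher by that test gave, in the same order, 12.1%, 5.61%, 7.48%, 35.5%, 1.87%, 17.8%, 11.2%, 5.61% and 0%. Of these 107, 4.67% held a D-box. These shares are counts without a test.

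Markers of Kupffer cells were lower at the high dose and markers of endothelial cells were higher. Of 14 tested Kupffer cell and macrophage markers, 11 fell and 1 rose, with a median of -0.58, and the counts were the same under TPM. Their summed level was 462 to 472 FPKM in the low-dose libraries and 326 to 331 FPKM in the high-dose libraries. Cd5l, a secreted protein of tissue macrophages, was at 32.7, 33.2 and 33.4 FPKM at the low dose and 14.4, 16 and 15.1 FPKM at the high dose, a difference of -1.08 ± 0.04 (SE; limma, adjusted p = 9.21e-11). The haemoglobin scavenger receptor Cd163 fell by 0.77 ± 0.04, Adgre1 (F4/80) by 0.76 ± 0.06, the receptor Marco by 0.65 ± 0.09 and the complement receptor Vsig4 by 0.64 ± 0.06 on the log2 scale. The subunits of complement C1q, which macrophages make, fell together: C1qa by 0.57 ± 0.04, C1qb by 0.54 ± 0.05 and C1qc by 0.59 ± 0.04. Cd68, Csf1r and the Kupffer cell lectin Clec4f fell by 0.59 ± 0.08, 0.43 ± 0.05 and 0.41 ± 0.04.

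Cd14 and Lyz2, which other myeloid cells and, for Cd14, hepatocytes also make, differed by -0.06 ± 0.06 and -0.01 ± 0.06 (SE) and did not pass the test. Mrc1, which sinusoidal endothelial cells share with macrophages, was higher by 0.12 ± 0.04 (adjusted p = 0.0358), and this call was lost when low dose 1, low dose 3, high dose 1 or high dose 2 was left out, with adjusted p between 0.0641 and 0.144. The call was also lost with the length trend removed (0.05, adjusted p = 0.392), with no filter on low values (adjusted p = 0.0524) and in a fit of the 6 libraries alone (adjusted p = 0.0797). Cd5l, Cd163, Adgre1 and Cd68 had medium-dose means of 15.5, 3.35, 2.02 and 11.1 FPKM, at the level of the high dose. The macrophage chemokine Ccl6 fell from 43.2, 41.5 and 43.6 FPKM to 23.4, 23.4 and 23.6 FPKM. In a bulk sample, fewer cells of a type and less RNA per cell cannot be told apart.

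Of 16 tested endothelial markers, 12 rose and 0 fell, with a median of 0.25. The 12 include Mrc1, which is also the 1 rise on the Kupffer cell list and whose call was lost in the settings above. The summed level of the 16 was 160 to 162 FPKM at the low dose and 189 to 192 FPKM at the high dose. Kdr, a receptor for vascular endothelial growth factor, rose from 9.90, 9.80 and 10.2 FPKM to 12.8, 13.4 and 13.8 FPKM, a difference of 0.38 ± 0.04 (SE; limma, adjusted p = 1.27e-06). The scavenger receptors Stab1 and Stab2 rose by 0.35 ± 0.07 and 0.27 ± 0.04, the hyaluronan receptor Lyve1 by 0.29 ± 0.04 and Clec14a by 0.34 ± 0.05. None of the 16 passed the 1.2-fold test. With the length trend described below removed, 10 of the 16 rose and 0 fell.

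Of 11 stellate cell markers 5 rose and 1 fell, with a median of 0.11, and their sum overlapped between the doses, at 168 to 172 FPKM (low) and 170 to 173 FPKM (high). Of 32 genes of fibrosis and stellate cells 15 rose and 5 fell, with a median of 0.13. The rises included the collagens Col1a1 (0.38 ± 0.06) and Col4a2 (0.40 ± 0.04), the retinol acyltransferase Lrat (0.35 ± 0.05) and the secreted protein Reln (0.44 ± 0.04), while the matrix protein Thbs1 fell by 0.31 ± 0.07. Col1a1 was near the expression limit, at 1.17, 1.01 and 1.25 FPKM at the low dose and 1.85, 1.71 and 1.81 FPKM at the high dose. Ednra, the endothelin A receptor, rose from 1.5, 1.72 and 1.41 FPKM to 4.22, 3.95 and 4.36 FPKM, a difference of 1.03 ± 0.06 (SE).

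Markers of other cells gave few calls. Of 9 lymphocyte markers tested (of 20 listed) 2 fell and 0 rose, summing to 25.4 to 27.6 FPKM at the low dose and 21.2 to 23.4 FPKM at the high dose. Of 3 neutrophil markers tested 1 rose, of 3 bile duct markers 1 fell, of 5 fat cell markers 1 rose and 1 fell, and of 9 red blood cell and 2 exocrine pancreas markers 0 passed. The bile duct call was Tff3, a mucosal repair peptide, which fell from 6.23, 6.37 and 5.91 FPKM to 1.03, 2.03 and 2.54 FPKM. The adipocyte hormone gene Lep and the pancreatic genes Prss1, Prss2 and Pnlip were listed at 0 in all 6 libraries, and the bile duct markers Krt19, Krt7 and Sox9 were under the expression limit. The part of these cells in the other results was not tested.

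**Figure D2:**
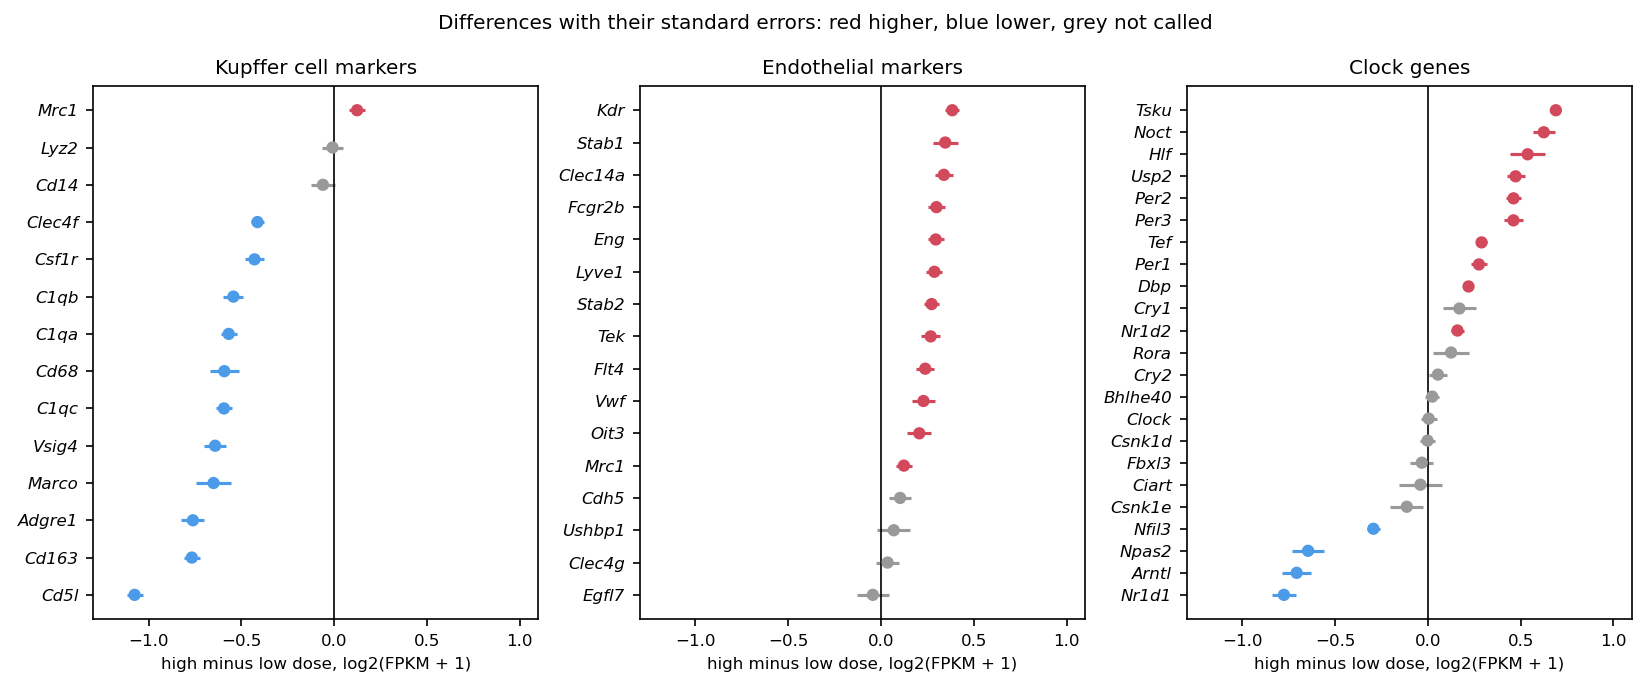
Difference between high and low dose (horizontal axis, log2(FPKM + 1)) for each tested Kupffer cell marker, endothelial marker and clock gene. Points are estimates and bars their standard errors, from the fit of all 18 libraries with 3 a group. Kupffer cell markers reach from -1.08 (Cd5l) to 0.12 (Mrc1), 12 of 16 endothelial markers are red on the right of 0, and clock genes spread from -0.78 (Nr1d1) to 0.69 (Tsku).

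The lipid droplet genes Plin2 and G0s2 fell, and Scd and Acaca of fat synthesis rose. Plin2, the coat protein of lipid droplets, was at 53.5, 54.8 and 52.5 FPKM at the low dose and 30.2, 30.5 and 29.9 FPKM at the high dose, a difference of -0.81 ± 0.04 (SE; limma, adjusted p = 2.68e-10), with the obese control above both at a mean of 70.1 FPKM. G0s2, an inhibitor of the main triglyceride lipase, fell from 270, 272 and 267 FPKM to 180, 177 and 182 FPKM. In the list of 29 lipoprotein and lipid droplet genes 6 rose and 12 fell, with a median of -0.08, and under TPM 13 rose and 6 fell. In the list for making fatty acids and triglycerides 11 of 24 rose and 4 fell, with a median of 0.09. Scd, the desaturase that makes monounsaturated fat, rose from 109, 107 and 111 FPKM to 170, 167 and 175 FPKM, a difference of 0.64 ± 0.02 (SE), and the medium dose was above both at a mean of 272 FPKM. Acaca, the first enzyme of fatty acid synthesis, rose by 0.38 ± 0.04, and Fasn differed by -0.07 ± 0.05 and did not pass the test. With the length trend described below removed, Fasn was called lower (-0.17; limma, adjusted p = 0.0126).

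PPARalpha targets and genes of fatty acid oxidation were divided, with 11 of 34 higher and 13 lower and a median of 0.01, and with 19 higher and 8 lower under TPM. Pdk4, which holds back glucose oxidation, and Angptl4, a lipase inhibitor, fell by 0.44 ± 0.03 and 0.50 ± 0.04, while the receptor Ppara rose by 0.35 ± 0.07 and the carnitine transferase Cpt1a by 0.15 ± 0.02. Lpl, the lipase that frees fatty acids from lipoproteins, rose by 0.50 ± 0.06 from a low level (low-dose mean 1.69 FPKM). Acsm5, a mitochondrial medium-chain acyl-CoA synthetase family member, was at 40.7, 38.4 and 39.5 FPKM at the low dose, 18.6, 18.5 and 18.7 FPKM at the medium dose and 74.5, 74.2 and 75.6 FPKM at the high dose. The 3 groups were fully apart with the medium dose lowest, and the medium dose departed from the mean of the others by -1.5 (limma, adjusted p = 1.1e-15).

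In cholesterol synthesis and uptake 4 of 28 rose and 11 fell, with a median of -0.05, and under TPM 11 rose and 7 fell. Lanosterol synthase Lss rose by 0.69 ± 0.06, and Insig1 and Insig2, which restrain the pathway, fell by 0.36 ± 0.03 and 0.48 ± 0.03. Of 20 bile acid genes 6 rose and 8 fell, with a median of -0.06, against 9 higher and 0 lower under TPM. The sterol exporter Abcg5 rose from 5.79, 5.46 and 6.52 FPKM to 10.6, 10.9 and 9.82 FPKM, a difference of 0.73 ± 0.06 (SE). Cyp7a1, which opens the main route from cholesterol to bile acids, differed by -0.08 ± 0.03 and did not pass (limma, adjusted p = 0.0744). It was called lower with the replicate block (adjusted p = 0.0467) and with the length trend removed (-0.115, adjusted p = 0.0153), and its sign turned under TPM.

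Amino acid breakdown was split, with 11 of 33 higher and 10 lower and a median of -0.01, and with 20 higher and 8 lower under TPM. Sds, which turns serine into pyruvate, rose from 81.9, 80.4 and 78.4 FPKM to 160, 157 and 163 FPKM, with the medium dose between at 108, 111 and 109 FPKM, and the difference was 0.99 ± 0.02 (SE; limma, adjusted p = 4.41e-13). The urea cycle entry enzyme Cps1 rose by 0.29 ± 0.01. The methionine cycle enzyme Bhmt fell by 0.59 ± 0.01, the lysine enzyme Aass by 0.53 ± 0.03, the glyoxylate enzyme Agxt by 0.47 ± 0.03 and the tyrosine enzyme Hpd by 0.42 ± 0.02. Bhmt, an abundant transcript, was at 1071 ± 4.21 FPKM at the low dose and 710.9 ± 3.40 FPKM at the high dose (SD, n = 3).

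Drug metabolism and antioxidant genes also went both ways. Of 25 P450 genes and their regulators 9 rose and 12 fell, with a median of -0.06 (13 higher and 4 lower under TPM). Alas1, the first enzyme of haem synthesis, rose by 0.60 ± 0.03, Por, the reductase that feeds P450 enzymes, by 0.35 ± 0.03 and Cyp2b2 by 0.44 ± 0.05, and the largest fall on the list was that of Cyp2c7. Of 28 conjugation enzymes 4 rose and 14 fell, with a median of -0.12 (9 and 9 under TPM), with Gstk1 (-0.61 ± 0.04) and Sult1b1 (-0.58 ± 0.05) among the falls. The 4 rises included the acetyltransferase Nat8f3 (0.73 ± 0.11) and the methyltransferase Inmt (1.08 ± 0.10). Inmt rose from 5.70, 6.61 and 6.83 FPKM to 14.4, 13.2 and 16.4 FPKM (limma, adjusted p = 1.05e-06), and the normal control stood far above at a mean of 44.5 FPKM. Of 24 antioxidant genes 8 rose and 10 fell, with a median of -0.05 (11 and 5 under TPM). Gclm, a subunit of the enzyme that starts glutathione synthesis, rose from 70.0, 67.7 and 70.7 FPKM to 115 FPKM in each high-dose library, and the aldehyde reductase Akr7a3 rose by the same 0.72. The metallothionein Mt2A and Osgin1 fell by 0.75 ± 0.04 and 0.64 ± 0.03. Of 8 carboxylesterases 2 rose and 3 fell (4 and 3 under TPM). The falls were Ces2a at -1.01 ± 0.07, Ces2j at -0.89 ± 0.09 and Ces2e at -0.85 ± 0.07, each in an enzyme family of near-identical copies where reads can be shared.

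More secreted and immune genes fell than rose, in lists whose counts depend on the scale. Of 25 acute phase genes 2 rose and 19 fell, with a median of -0.14, but 5 rose and 6 fell under TPM, and 5 rose and 6 fell after quantile normalization. Hamp, the iron hormone hepcidin, fell from 1656, 1745 and 1703 FPKM to 1085, 1056 and 1083 FPKM, a difference of -0.66 ± 0.03 (SE; limma, adjusted p = 1.06e-10). Orm1 fell by 0.41 ± 0.03 and the receptor Lifr rose by 0.65 ± 0.07. Of 33 complement and coagulation genes 4 rose and 18 fell with a median of -0.05, against 17 higher and 1 lower under TPM. The 1 gene of that list called lower under TPM was Kng1, which encodes the kinin precursor. It fell from 940.3 ± 13.5 to 510.9 ± 5.76 FPKM (SD, n = 3), a difference of -0.88 ± 0.02. C7, a terminal complement factor, rose by 0.84 ± 0.08 from about 2 FPKM. Of 35 interferon response genes 4 rose and 15 fell, with a median of -0.14 (7 and 9 under TPM), with Ifit1 (-0.84 ± 0.07), Xaf1 (-0.54 ± 0.09) and Mx1 (-0.50 ± 0.09) among the falls. Of 23 inflammation genes 2 rose and 5 fell, with a median of -0.08 (6 and 2 under TPM). The cytokine genes Tnf and Il6 were listed at 0 in all 6 libraries.

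Cytosolic ribosomal protein transcripts and the protein-coding transcripts of the mitochondrial genome were lower at the high dose. All 13 mitochondrially encoded protein-coding transcripts fell, with a median of -0.78 (13 lower under TPM, 12 after quantile normalization). Of the other mitochondrial transcripts, both ribosomal RNAs fell, and of 14 transfer RNAs tested 6 fell and 8 did not pass. ND3 fell from 1467 ± 26.2 to 683.4 ± 43.5 FPKM (SD, n = 3), a difference of -1.10 ± 0.09 (limma, adjusted p = 3.8e-07), ND6 by 1.08 ± 0.11, ND5 by 1.00 ± 0.05 and both COX1 and CYTB by 0.58. COX1 differed by 0.00 after quantile normalization. That setting gives genes of equal rank the same value in every library, so it cannot show whether such a gene changed. The nuclear genes of oxidative phosphorylation were divided, with 7 of 47 higher and 11 lower and a median of -0.03 (18 and 2 under TPM). Of 67 cytosolic ribosomal protein genes 54 fell and 0 rose, with a median of -0.33 (50 lower and 1 higher under TPM). Rpl12 fell from 230, 223 and 222 FPKM to 144, 138 and 148 FPKM, a difference of -0.65 ± 0.03 (SE), and Rpl13 by 0.54 ± 0.02, Rpl19 by 0.43 ± 0.04 and Rps18 by 0.43 ± 0.03. Ribosomal protein genes have many near-identical copies, so reads of single members can be shared. Of 31 proteasome subunits 15 fell and 1 rose, with a median of -0.13, and under TPM 7 rose and 2 fell.

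Ribosomal and mitochondrial genes are short, with a median length of 703 and 784 bases, and gene length itself moved with the dose. In the shortest of 5 equal bins of tested genes (42 to 1103 bases) the median difference was -0.105 and 5.82% of genes rose while 21.2% fell. In the longest bin (3740 to 29464 bases) the median was 0.07 and 29.6% rose while 7.74% fell. The shift was shared by all 6 libraries: short genes stood 0.04 to 0.06 above the mean of the 6 in each low-dose library and 0.05 to 0.06 below it in each high-dose library. With a smooth length trend removed from the libraries, 1705 genes rose and 1725 fell, with 1499 of the 1939 genes still called higher and 1512 of the 1964 still called lower. Of the ribosomal genes 52 of 67 then fell, with a median of -0.27, all 13 mitochondrial protein-coding transcripts fell, and proteasome falls went from 15 to 5. The part of library preparation in the length shift was not tested.

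**Figure D3:**
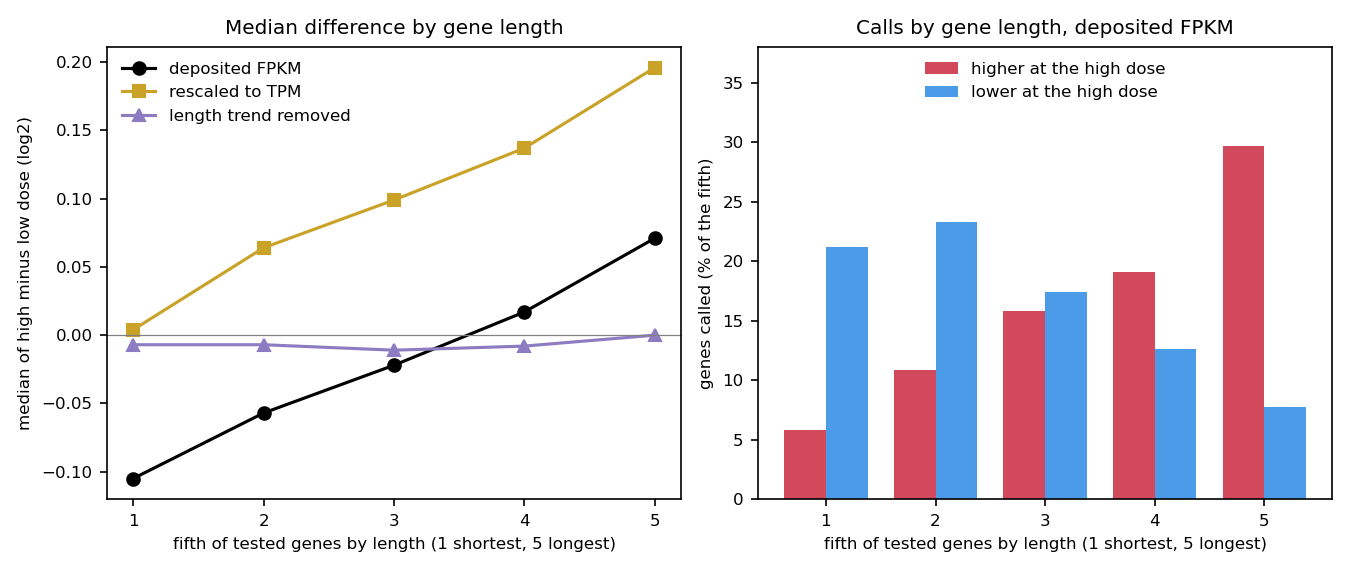
Left, median difference between high and low dose (log2) in 5 equal bins of tested genes by length, for the deposited FPKM, for TPM and after removal of the length trend; right, share of genes called higher or lower in each bin (%). On the deposited scale the median climbs from -0.105 in the shortest bin to 0.071 in the longest.

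**Figure D4:**
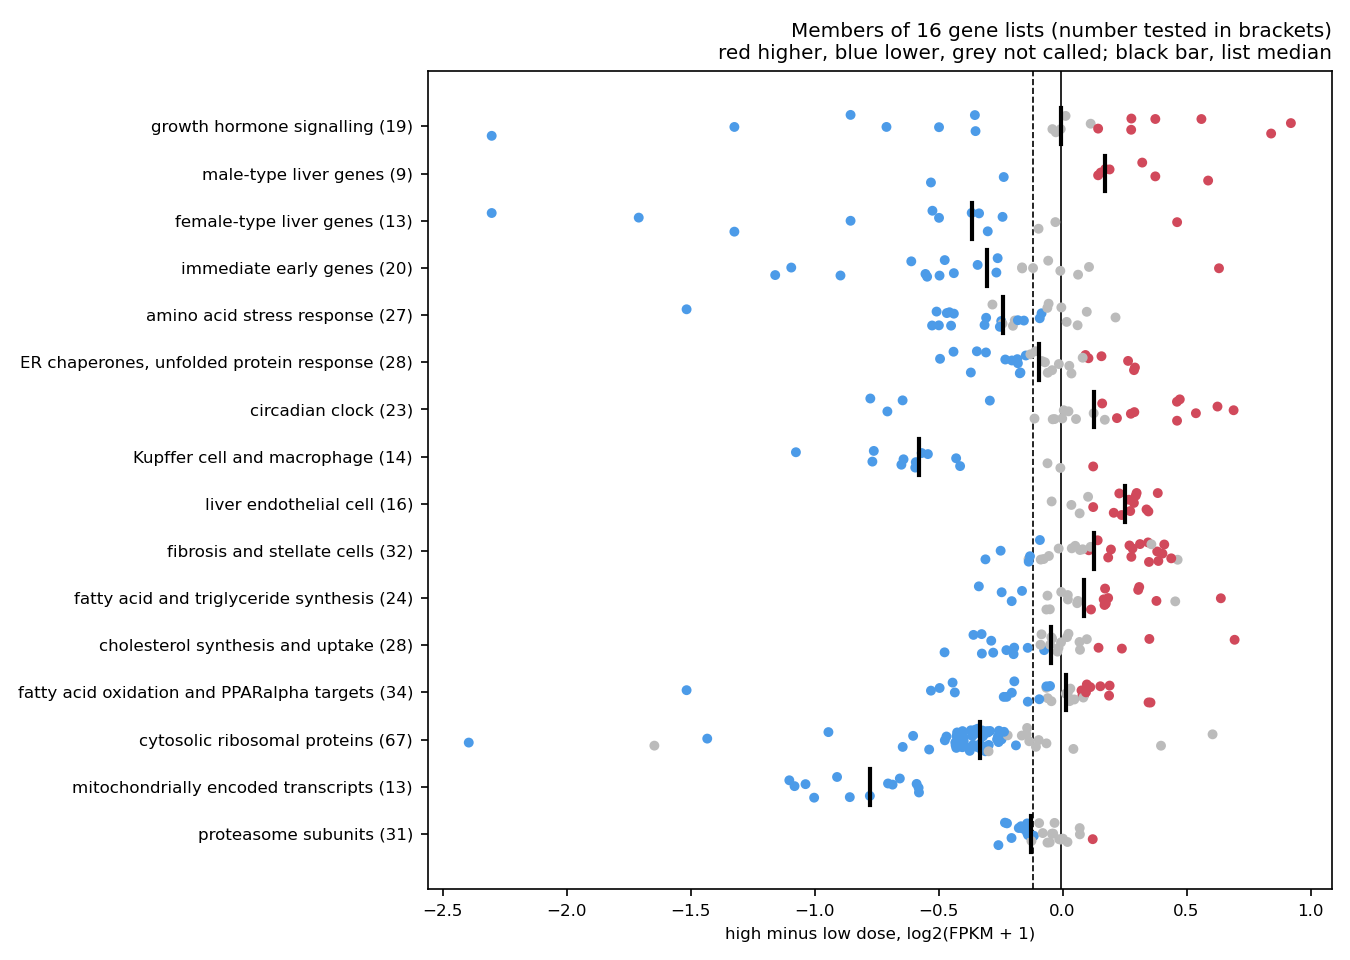
Difference between high and low dose (horizontal axis, log2(FPKM + 1)) of every tested member of 16 gene lists. Each point is a gene, the black bar is the list median and the solid line is the median of all tested genes. The dashed line is where 0 on the TPM scale would lie for the middle gene. Female-type genes, immediate early genes, Kupffer cell markers, ribosomal and mitochondrial transcripts lie mostly to the left of both lines, and endothelial markers to the right.

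The lists not yet described gave mixed calls. Of 25 heat shock genes 4 rose and 8 fell, with a median of 0.01 (10 and 2 under TPM). Of 17 iron genes 6 rose and 6 fell, with a median of -0.03 (9 and 4 under TPM). Of 20 hepatocyte transcription factors 5 rose and 6 fell, with a median of -0.01 (10 and 1 under TPM), and Onecut1 was the only one past the 1.2-fold test.

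Several of the largest changes rest on genes whose reads cannot be assigned with certainty. Nfs1, a cysteine desulfurase, has 2 entries on chromosome 3: ENSRNOG00000019736 fell from 17.9, 17.6 and 17.1 FPKM to 1.12, 1.06 and 1.11 FPKM, while ENSRNOG00000045686 was at 0.338, 0.420 and 14.8 FPKM at the low dose and 0.318, 0.187 and 20.2 FPKM at the high dose. Rps27a, which encodes ubiquitin fused to a ribosomal protein, has an entry on chromosome 14 that fell from 188, 333 and 353 FPKM to 94.0, 112 and 105 FPKM and one on chromosome 5 at 253, 145 and 118 FPKM (low) and 224, 216 and 216 FPKM (high). The second Nfs1 entry was high in replicate 3 of each dose only, and the Rps27a entries were unequal among the low-dose libraries. Reads of near-identical copies can be shared, so the change of each gene as a whole is uncertain. Tspan4 varied within groups, from 11.3 to 28.1 FPKM at the low dose and from 0.792 to 1.51 FPKM at the high dose, and the SE of its difference of -3.20 was 0.84. Map2k3, a kinase of the p38 pathway, was at 2.45, 6.02 and 7.83 FPKM (low) and 9.53, 13.4 and 17.2 FPKM (high), and its call (adjusted p = 0.0325) was lost when any of 3 libraries was left out (low dose 1, high dose 2 or high dose 3), with adjusted p of 0.154, 0.0755 and 0.113. Gm23880, a microRNA-type entry of 54 bases, lost its call without any of 4 libraries (low dose 3 or any high-dose library), with adjusted p between 0.0614 and 0.172. With no filter on low values, Map2k3 and Gm23880 also missed the threshold (adjusted p of 0.0674 and 0.0706). Gm23880 missed it with the replicate block too (0.0511). The doses of Rps6 overlapped, at 14.4 to 69.0 FPKM (low) and 2.64 to 21.1 FPKM (high). Without low dose 1, low dose 3, high dose 2 or high dose 3 its call was lost (adjusted p of 0.105 to 0.140). Its call was lost as well with voom (0.0948), in a fit of the 6 libraries alone (0.0714), with no filter (0.0761) and with the replicate block (0.0508).

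The other genes among the 12 largest rises and falls were steadier. Gimd1 (1.03 ± 0.06), Nrep (0.96 ± 0.06), Prrg4 (0.92 ± 0.12) and Rpl10l (0.90 ± 0.08) rose. Rpl10l is a ribosomal protein gene left off the list of cytosolic ribosomal proteins, and its reads can be shared with near-identical copies. Rpl10, on that list, fell by 0.35 ± 0.02. Nrep, a regulator of repair in fibroblasts, went from 25.4, 22.2 and 26.5 FPKM to 52.2, 48.5 and 46.3 FPKM. Serpina7, the thyroxine-binding globulin, fell from 11.1, 11 and 11.7 FPKM to 3.94, 3.90 and 3.93 FPKM, a difference of -1.31 ± 0.08 (SE; limma, adjusted p = 1.05e-08), with the medium dose lower still at 2.56, 2.40 and 2.71 FPKM. The placeholder LOC103690108 on chromosome 20, chosen after its values were seen, had the largest rise of any gene called: it was at 0.0779, 0 and 0.0392 FPKM in the low-dose libraries and 7.87, 7.26 and 9.44 FPKM in the high-dose libraries, and at 12.1, 11 and 10.4 FPKM at the medium dose.

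The medium dose lay between the others for many genes and beyond them for others. Among genes that rose from low to high dose, the medium-dose mean lay between them for 1404 of 1939 (72.4%), and among genes that fell for 1215 of 1964 (61.9%). Over all tested genes the share was 42.5%, but genes chosen for a wide gap between low and high dose hold the medium dose between them more often by construction, so the shares do not show a graded change. Under the 1.2-fold rule it was 123 of 160 that rose (76.9%) and 161 of 221 that fell (72.9%). The medium position puts 0 at the low dose and 1 at the high dose. Among all genes that passed the adjusted p of 0.05, its median was 0.52 for rises and 0.62 for falls. Under the 1.2-fold rule the medians were 0.608 and 0.695. Sds, Ednra, Fgf21, Nr1d1 and Gclm had the medium dose near the middle, while Prlr, Cd5l and Btg2 had already come close to the high dose at the medium dose, with positions of 0.87, 0.97 and 0.99. A direct test of the medium dose against the mean of low and high called 2096 genes, 987 higher (8.26%) and 1109 lower (9.28%). Cish, Socs2, Onecut1, Acsm5, Tsku and Myc were among the lower with the medium dose beyond the low dose, and Bcl6 among the higher with the medium dose beyond the low dose. Scd, at a position of 2.05, overshot the high dose.

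Comparisons that share no library with these 6 give the same genes another reading. Obese control against normal control called 3191 genes higher (26.7%) and 3387 lower (28.4%), and orlistat against obese control called 3133 higher (26.2%) and 3055 lower (25.6%). Of the 1939 genes higher at the high than at the low dose, 1230 (63.4%, or 36.3% of the other list) were lower in the obese than in the normal control, and 243 (12.5%) were higher. Of the 1964 genes lower at the high dose, 1164 (59.3%, or 36.5%) were higher in the obese control and 275 (14%) were lower. With orlistat, 1435 of the 1939 genes higher here (74.0%, or 45.8%) were also higher than in the obese control and 122 were lower, and 1308 of the 1964 falls (66.6%, or 42.8%) were also lower and 161 were higher. Under TPM the 4 leading counts became 2682, 433, 3168 and 469. The obese control enters both outside comparisons, so the counts against the first and the second are not independent of each other. Both outside comparisons also share with the main one the spread of each gene, estimated from all 18 libraries. A gene with a small spread passes more readily in each of them, so the shared counts are not independent of the main calls.

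Named genes followed this in part. Arntl was at means of 0.297 FPKM in the normal control and 6.05 in the obese control, and at 2.01 and 0.845 at the low and high dose. Inmt, at 44.5 and 4.01 FPKM in the normal and obese control, was at 6.38 and 14.7 FPKM at the low and high dose and at 14.1 FPKM with orlistat. Cish did not follow it: it was at 6.87 FPKM in the normal and 9.47 FPKM in the obese control, was lowered by orlistat to 2.33 FPKM, and stood at 12.4 FPKM at the high dose, above every other group mean. Egr1 was higher in the normal than in the obese control (means of 20.2 and 11.5 FPKM), and its low-dose mean of 26.7 FPKM was above both.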

How the data were processed

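Liver RNA of 18 libraries in 6 groups of 3 was sequenced as total RNA libraries made with the NEBNext Ultra kit, per the labels' protocols. The authors deposited FPKM values per gene with rat Ensembl gene IDs, symbols, gene lengths and coordinates. Bowtie 0.12.2, CASAVA 1.7 and mm8, a mouse build, are named without a role per the submitters' processing notes. No source used here names the rat build or the quantifier. Multiplied by gene length, the deposited FPKM of every library were whole multiples of 1 read within 0.001 in 100% of values, and they already stood on a median-ratio scale. Reads were recovered this way for depth and for one alternative test. A few widely used genes, such as Fth1 and Rpl10a, are listed at 0 and can be failed estimates.

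The genes that reached 1 FPKM in 3 or more of 18 libraries were fitted in limma 3.58.1 (R 4.3.3) on log2(FPKM + 1) with 6 groups together and a trend in the spread, leaving 12 residual degrees of freedom, with Benjamini-Hochberg adjustment over 11945 genes and a threshold of 0.05. The fit was checked on simulated data with independent noise for each gene. Those data held no shift of scale or gene length between the doses, so the check does not cover such shifts. Groups came from the labels, and a chi-square test of recovered reads found no replicate pair within sampling noise. The genes named are the 12 largest rises and 12 largest falls with groups apart, at least 2 FPKM and a proper symbol, up to 5 members by p from each list, and members whose role the text needs. The comparison and the 41 gene lists (31 pathways, 10 sets of cell type markers) were chosen with earlier results of these data known. Promoter windows came from RefSeq on GRCr8, matched by symbol for 8033 of 9904 genes with a proper symbol; the STAT5, insulin response and CArG patterns were added after seeing the data. No library was left out.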

Additional observations from a re-analysis of the deposited data

How the results depend on the processing

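Leaving out each of the 6 libraries in turn gave 3265 to 3328 genes called between the doses, 1626 to 1663 higher and 1624 to 1674 lower, and 1901 to 1967 departures of the medium dose. The 1.2-fold test left 381 genes (160 higher, 221 lower) and 149 medium-dose departures. TPM gave 4003 higher and 826 lower, voom on recovered reads 2986 and 1132, and TPM over nuclear genes, chosen after seeing the data, 2969 and 1157. Under TPM the genes shared with the outside comparisons numbered 2682 (higher here, lower in the obese control), 433 (lower here, higher in the obese control), 3168 (higher in both, orlistat) and 469 (lower in both, orlistat). The 1.2-fold test asks for a larger change by construction. Of the 157 genes named, 49 lost their call by it, among them Tspan4. For the other moves the cause was not tested. These shared counts were recomputed only under TPM, quantile and median-ratio scaling. Another pseudocount, other filters, quantile and median-ratio scaling and removal of the length trend (added after seeing the data) kept the counts of genes called between the doses within 1.5 times, and a fit of the 6 libraries alone called 3181 genes.

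The replicate numbers did not pair the samples: deviations of same-numbered libraries correlated at -0.08, -0.04 and 0.06. With the numbers as a replicate block, 3796 genes were called (1900 higher, 1896 lower) and 1995 medium-dose departures.

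Genes that did not pass the test changed sign: Fasn to 0.054 (TPM) and 0.001 (voom), though it was called lower at -0.17 with the length trend removed, Cyp7a1 to 0.056 (TPM), though it was called lower with the replicate block and at -0.115 with the length trend removed, Cd14 to 0.070 (TPM), 0.006 (voom) and 0.012 (nuclear TPM), and Lyz2 to 0.124 (TPM), 0.042 (quantile), 0.064 (voom), 0.066 (nuclear TPM) and 0.055 (length). The median SE of a difference was 0.07, so for the middle gene a difference of that size could not be told from 0.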
